A study of Mus musculus with 6 samples.

Results

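The 9 genes described here encode the recognition molecule of the classical complement pathway (C1qa, C1qb and C1qc), the receptors for the complement fragments C3a and C5a (C3ar1 and C5ar1), the receptors for the constant part of IgG (Fcgr1, Fcgr2b and Fcgr3) and the Fc receptor gamma chain (Fcer1g). They were chosen by name, as 9 of the 32429 genes listed in the count tables, of which 17383 had at least 1 UMI (unique molecular identifier, a count of captured transcripts). All 9 had UMIs in microglia of all 6 libraries. C1q is built from the products of its 3 genes, binds antibody complexes, dying cells and synapses, and starts the classical cascade. Microglia, the resident macrophages of the brain, are its main source in brain tissue. Activating Fc receptors need the gamma chain, which carries the signalling motif and also holds them at the cell surface, whereas Fcgr2b is the inhibitory receptor.

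Live CD45+ cells, that is, leukocytes and microglia, were sorted from hippocampi of mice whose strain is labelled BC57BL/6 and sequenced cell by cell in droplets, from the 5' end of transcripts. Learned helplessness was induced with 180 inescapable foot shocks of 0.3 mA and scored in a test of 30 trials. The groups were non-shocked mice, acute non-helpless mice, acute helpless mice, and 3 groups retested weekly for 3 weeks: chronic non-helpless, non-recovered, and recovered mice, which had been helpless and later were not. Each group was 1 library, and the number, sex and age of the mice behind each are not given in the sources used here, so no test between groups was possible. All intervals are exact 95% intervals that cover counting error only. The acute helpless library carried batch number 1, the acute non-helpless library 2 and the chronic libraries 3, while non-shocked cells were divided between batches 2 and 3, so that group and batch cannot be told apart for the acute helpless library.

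Of 3005 cells, 2721 were deposited as microglia: 630 acute helpless, 569 acute non-helpless, 372 recovered, 499 chronic non-helpless, 552 non-shocked and 99 non-recovered. Total UMIs per library ran from 438777 (non-recovered) to 3260120 (recovered). The median microglial cell had 2497 UMIs in the non-recovered library and 3060 to 4579.5 in the others; within the non-shocked library it had 905 in batch 2 and 3906 in batch 3. The label was checked against 7 microglial markers (among them P2ry12, Tmem119, Sall1, Siglech, Gpr34 and Cx3cr1), none of them at 0. Their summed level was 26472 CPM (UMIs of a gene per 1000000 UMIs summed) in batch 2 of the non-shocked cells, 30184 in the non-recovered library and 34078 to 39360.5 elsewhere. Of 3000 different barcodes, 5 occurred in more than 1 library.

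The 3 C1q genes lie next to each other on chromosome 4 (GRCm38.p6, the RefSeq release of the mm10 build): C1qb at 136880126-136886200, C1qc at 136889801-136892936 and C1qa at 136895916-136898844. Fcgr2b (170960558-170976071), Fcgr3 (171051169-171065915) and Fcer1g (171229572-171234349) lie on chromosome 1. Fcgr4 (171018926-171029761) lies between Fcgr2b and Fcgr3, and since these receptors are related in sequence, the division of reads among them is uncertain. Fcgr1, C3ar1 and C5ar1 lie on chromosomes 3, 6 and 7. For C1qb and Fcer1g, the only ones of the 9 genes at least 1.5-fold lower in non-recovered than in recovered microglia, and for C1qc, whose product joins that of C1qb in C1q, the 250 bases before the RefSeq transcript start are shown, 5' to 3' on the gene's strand, all on the minus strand: chr4:136886201-136886450 for C1qb, chr4:136892915-136893164 for C1qc and chr1:171234350-171234599 for Fcer1g. Capitals mark GAGGAA or its reverse complement TTCCTC, the letters of a site for PU.1, a factor that macrophages and microglia depend on. GAGGAA holds the shorter GGAA core that all ETS factors share.
C1qb: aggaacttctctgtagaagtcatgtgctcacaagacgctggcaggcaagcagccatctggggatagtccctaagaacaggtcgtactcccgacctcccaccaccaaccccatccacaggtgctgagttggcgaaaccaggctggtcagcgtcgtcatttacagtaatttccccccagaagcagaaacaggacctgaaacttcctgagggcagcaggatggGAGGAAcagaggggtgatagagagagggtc
C1qc: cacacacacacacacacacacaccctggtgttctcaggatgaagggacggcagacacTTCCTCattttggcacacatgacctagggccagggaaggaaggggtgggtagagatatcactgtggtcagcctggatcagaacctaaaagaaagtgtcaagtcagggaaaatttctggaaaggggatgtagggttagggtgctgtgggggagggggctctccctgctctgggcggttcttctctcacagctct
Fcer1g: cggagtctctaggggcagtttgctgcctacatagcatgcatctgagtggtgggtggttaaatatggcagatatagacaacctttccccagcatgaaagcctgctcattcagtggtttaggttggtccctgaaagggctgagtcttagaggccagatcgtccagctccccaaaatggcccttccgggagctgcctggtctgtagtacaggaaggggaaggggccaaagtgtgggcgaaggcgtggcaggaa
The C1qb window held GAGGAA with its first base 30 bases before the start. In C1qc the reverse-strand match lay 193 bases before it, and the Fcer1g window held neither form. Of the 9 genes, 8 had a promoter entry and 4 of these held the motif (C1qb, C1qc, Fcgr1 and Fcgr3), beside 7639 of all 32851 windows of that length, or 23.3%. A match describes these letters and is no evidence of binding.

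C1q transcripts were among the most abundant of microglia. Ranked by UMIs in all microglia, C1qa, C1qb and C1qc were the genes 6, 7 and 8 of 16000 detected, Fcer1g was 32, Fcgr3 57, Fcgr1 273, Fcgr2b 415, C3ar1 540 and C5ar1 839. These ranks compare UMI counts, which record 5' transcript ends and are not scaled by length. The summed C1q level was 31358 CPM in the acute helpless library (31148 to 31569.8), 27025 in the acute non-helpless (26812 to 27239.9), 27006 in the recovered (26762 to 27252), 25540.2 in the chronic non-helpless (25326 to 25756), 24606 in the non-shocked (24382 to 24832) and 17839 in the non-recovered library (17368 to 18321). C1q therefore made up 3.14% of microglial UMIs in acute helpless and 1.78% in non-recovered microglia. The acute non-helpless and recovered libraries did not differ beyond counting error, and every other pair of neighbours in this order did. The non-shocked value, however, pools 2 batches. In batch 3 alone it was 25245 CPM (25007 to 25485), and 18383.5 CPM in batch 2. Chronic non-helpless microglia did not differ from batch 3 beyond counting error (ratio 1.012, 0.999 to 1.025).

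C1qa, the A chain, had 11192 CPM in acute helpless microglia, 9307 in acute non-helpless, 9029 in recovered, 8713 in chronic non-helpless, 8609 in non-shocked cells of batch 3, 6896 in those of batch 2 and 6179 in non-recovered microglia. C1qb, the B chain, had 10282, 8994, 9281, 8518, 8439, 5727 and 5810.5 CPM in the same order. C1qc, the C chain, had 9884, 8724, 8696, 8309, 8198, 5761 and 5849.9 CPM. For all 3 chains the acute helpless library was highest. The non-recovered library and batch 2 of the non-shocked library lay below all other profiles. Nearly every microglial cell carried C1q: 10 of 2721 had no C1q UMI, and 9 of these held under 0.5% of their UMIs in the microglial markers. Within cells of at least 1000 UMIs, the median share of UMIs in C1q was 3.04% in acute helpless microglia, with the middle 80% of cells between 1.67% and 4.05%, and 1.74% in non-recovered microglia, with the middle 80% between 0.679% and 2.69%.

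The complement fragment receptors were far less abundant. C3ar1, the receptor for C3a, had 261 CPM in acute helpless, 247 in acute non-helpless, 254 in recovered and 284 in chronic non-helpless microglia, 269 and 224 in batches 3 and 2 of the non-shocked cells, and 263 in non-recovered microglia. No C3ar1 interval of any comparison between groups left out a ratio of 1. C5ar1, the receptor for C5a, had 195, 134, 186, 205, 201, 126 and 128 CPM in the same order. C5ar1 was thus low in 3 profiles: acute non-helpless (119 to 149.6), non-recovered (91.2 to 175) and non-shocked batch 2 (79 to 191).

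Among the Fc receptor genes, Fcer1g and Fcgr3 varied most. Fcer1g, the shared gamma chain, had 2459 CPM in acute helpless, 2414 in acute non-helpless, 2297 in recovered and 2057 in chronic non-helpless microglia, 2025 and 1244 in batches 3 and 2 of the non-shocked cells, and 1411 in non-recovered microglia. Fcgr3, the low-affinity activating receptor that pairs with it, had 1644, 1551, 1360.3, 1354, 1229, 889 and 941 CPM in the same order. Both were highest in the acute libraries and lowest in batch 2 and the non-recovered library. Fcgr1, the high-affinity receptor, had 502, 468, 514, 475, 509, 355 and 355 CPM, and was likewise low in the last 2 profiles only. Fcgr2b, the inhibitory receptor, had 302, 382, 344, 326, 324, 378 and 286 CPM. It was highest in acute non-helpless microglia (357 to 408) and batch 2 (293 to 481), and lowest in acute helpless (281 to 323) and non-recovered microglia (229 to 353). The values of batch 2 and the non-recovered library rest on 66 and 87 UMIs. The Fcgr2b ratio of batch 2 over batch 3 held 1 (0.89 to 1.51), as did the ratios of the non-recovered library to each batch 3 profile.

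Shares of positive cells depend on depth, among other things, so cells were also thinned to 1000 UMIs each, leaving out shallower cells. An Fcer1g UMI was found in 93.3% of all acute helpless microglia and 84.4% of the thinned ones. The share before and after thinning was 94.9% and 85.9% in acute non-helpless, 94.1% and 83.8% in recovered, 92.8% and 77.4% in chronic non-helpless, 78.4% and 72.4% in non-shocked, and 65.7% and 56.8% in non-recovered microglia. The non-recovered library was the lowest of the 6 at equal depth as well. Batch 2 of the non-shocked cells taken alone was at 43.9% before and 51.8% (38 to 65.3) after thinning, and did not differ from the non-recovered library (45.8 to 67.3) beyond counting error. In the 17 B cell barcodes, which should lack the gamma chain and had a median of 4670 UMIs, 11.8% held an Fcer1g UMI.

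**Figure D1:**
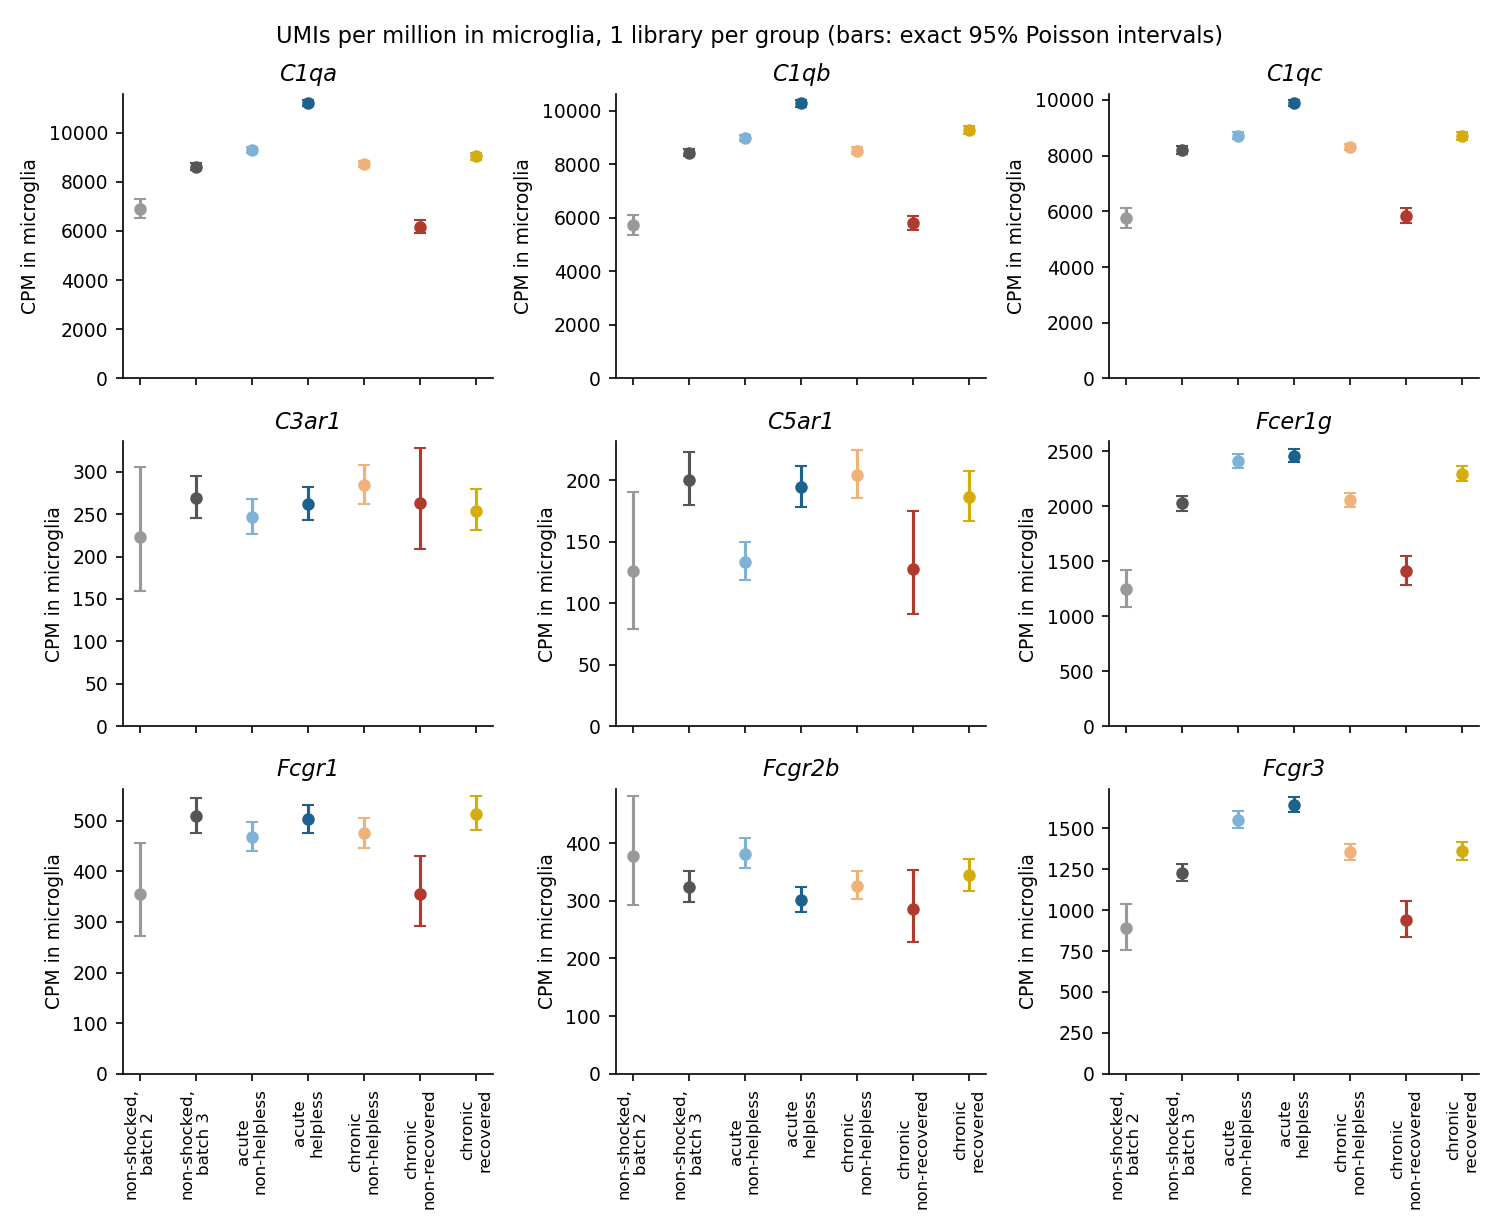
Level (CPM) of each gene in microglia, with non-shocked cells split by batch number and 1 library per other group; points are levels and bars exact 95% Poisson intervals. The 3 C1q genes were highest in acute helpless microglia (9884 to 11192 CPM), and the non-recovered library lay low for C1q, Fcer1g (1411 CPM) and Fcgr3 (941 CPM).

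Pairs of libraries were compared by the ratio of their CPM. A gene was counted as apart when the ratio was at least 1.5-fold either way, its interval left out 1 and the higher library had at least 20 CPM. Several comparisons share a library, so their values are not independent of each other.

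In acute helpless over acute non-helpless microglia, C1qa was 1.20-fold higher (1.18 to 1.22), C1qb 1.14-fold higher (1.12 to 1.16) and C1qc 1.13-fold higher (1.11 to 1.15). C5ar1 was 1.46-fold higher (1.26 to 1.68), with 528 against 303 UMIs, and Fcgr2b was 1.27-fold lower (1.15 to 1.39). Fcgr3 was 1.06-fold higher (1.01 to 1.11), and the intervals of C3ar1, Fcer1g and Fcgr1 held 1. None of the 9 genes was apart, beside 17.4% of 6745 genes tested. C5ar1 was past 1.5-fold with median-of-ratios scaling, and the count was then 1, with no share of all genes computed. The median log2 ratio was 0.10 over the 9 genes and -0.06 over all genes.

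Against non-shocked microglia, acute helpless microglia had C1qa 1.32-fold higher (1.30 to 1.35), C1qb 1.26-fold (1.23 to 1.28), C1qc 1.24-fold (1.22 to 1.27), Fcer1g 1.26-fold (1.21 to 1.31) and Fcgr3 1.37-fold higher (1.30 to 1.45). The intervals of C3ar1, C5ar1, Fcgr1 and Fcgr2b held 1. Again 0 of 9 were apart, beside 28.2% of 7106 genes. This comparison depended on the batch of the control: 6 of the 9 were apart, all higher, against batch 2 alone, beside 11.2% of 7561 genes that were higher, and 0 against batch 3, beside 25.7% of 7088 genes.

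In acute non-helpless over non-shocked microglia of the same batch, 4 of 9 genes were apart and higher, beside 9.12% of 7557 genes that were higher. Fcer1g was 1.94-fold higher (1.69 to 2.23), Fcgr3 1.75-fold (1.49 to 2.06), C1qb 1.57-fold (1.47 to 1.68) and C1qc 1.51-fold (1.42 to 1.61). C1qa was 1.35-fold higher (1.27 to 1.43) and Fcgr1 1.32-fold (1.02 to 1.73), while C3ar1, C5ar1 and Fcgr2b had intervals holding 1. The control here was 123 shallow cells, 65.0% of them poor in ribosomal protein UMIs against 9.31% of acute non-helpless microglia. With cells of at least 2.5% ribosomal protein UMIs, and equally with all non-shocked microglia, the count was 0. The share of all genes was not computed for either. The control cells themselves differed: in batch 2 against batch 3 of the non-shocked library, Fcer1g was 1.63-fold lower (1.42 to 1.88) and C5ar1 1.59-fold lower (1.03 to 2.57). These were 2 of 9 genes, beside 7.13% of 7757 genes that were lower.

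Non-recovered microglia had lower C1q, Fcer1g and Fcgr3 than all 3 batch 3 libraries they were compared with. Against recovered microglia, Fcer1g was 1.63-fold lower (1.47 to 1.80), C1qb 1.60-fold (1.52 to 1.68), C1qc 1.49-fold (1.42 to 1.56), C1qa 1.46-fold (1.39 to 1.53) and Fcgr3 1.45-fold lower (1.28 to 1.64). Fcgr1 was 1.45-fold lower (1.18 to 1.78) and C5ar1 1.45-fold lower (1.04 to 2.08), whereas the intervals of C3ar1 and Fcgr2b held 1. Thus 2 of 9 were apart and lower, beside 5.68% of 7277 genes. The median log2 ratio was -0.54 over the 9 genes and 0.16 over all genes.

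Against chronic non-helpless microglia, C5ar1 was 1.59-fold lower (1.15 to 2.27) on 39 against 436 UMIs, and was the only gene apart, 1 of 9, beside 4.94% of 7327 genes that were lower. C1qa was 1.41-fold lower (1.34 to 1.48), C1qb 1.47-fold (1.40 to 1.54), C1qc 1.42-fold (1.35 to 1.49), Fcer1g 1.46-fold (1.32 to 1.61), Fcgr3 1.44-fold (1.27 to 1.63) and Fcgr1 1.34-fold lower (1.09 to 1.64). Against non-shocked microglia of batch 3 the same pattern was found: C5ar1 was 1.56-fold lower (1.12 to 2.24), again 1 of 9, beside 3.07% of 7395 genes. C1qa was 1.39-fold (1.33 to 1.46), C1qb 1.45-fold (1.38 to 1.53), C1qc 1.40-fold (1.33 to 1.47) and Fcer1g 1.43-fold lower (1.30 to 1.59). Over the 9 genes the median log2 ratio was -0.51 and -0.49 in these comparisons, against 0.10 and 0.08 over all genes.

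The non-recovered library stood apart in several ways that move with these values. It had 99 microglia, 53.5% of them with under 2.5% ribosomal protein UMIs, against 9.41% in the recovered, 15.6% in the chronic non-helpless and 34.3% in batch 3 of the non-shocked library. With those cells left out everywhere, 0 of 9 genes were apart in all 3 comparisons, with no share of all genes computed. The median log2 ratio of the 9 genes was then -0.36 against recovered, -0.32 against chronic non-helpless and -0.28 against non-shocked microglia. Its microglia also carried 22472 CPM of 7 neutrophil markers, 1 of the 7 at 0, against 981 CPM in the chronic non-helpless library and at most 17.2 CPM elsewhere. One barcode held 6790 of these 6830 UMIs, and without it the other cells had 139 CPM; likewise 1 barcode held 2044 of the 2090 in the chronic non-helpless library. When barcodes with few microglial marker or many neutrophil UMIs were left out, 1 of them from this library, C5ar1 against chronic non-helpless microglia was at a log2 ratio of -0.58, and the count became 0 there and against non-shocked microglia. No share of all genes was computed for this check. The C1q ratios against recovered microglia were then -0.48 for C1qa, -0.61 for C1qb and -0.50 for C1qc. Among cells with 4000 to under 8000 UMIs, 26 of them non-recovered, the summed C1q level was 22921 CPM (22125 to 23737) in non-recovered and 26763 to 27729.6 CPM in the other batch 3 profiles.

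The remaining chronic comparisons showed small differences. In recovered over chronic non-helpless microglia, Fcer1g was 1.12-fold (1.07 to 1.17) and C1qb 1.09-fold higher (1.07 to 1.11), and 0 of 9 genes were apart, beside 6.17% of 6774 genes. In recovered over non-shocked microglia of batch 3, Fcer1g was 1.13-fold higher (1.08 to 1.19) and C1qb 1.10-fold higher (1.08 to 1.12), with 0 of 9 apart, beside 14.7% of 7084 genes. In chronic non-helpless over non-shocked microglia of batch 3, Fcgr3 was 1.10-fold higher (1.04 to 1.17) and the intervals of the other 8 genes held 1, with 0 apart, beside 15.7% of 7155 genes. For C1qa this last interval ran from 0.99 to 1.03.

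**Figure D2:**
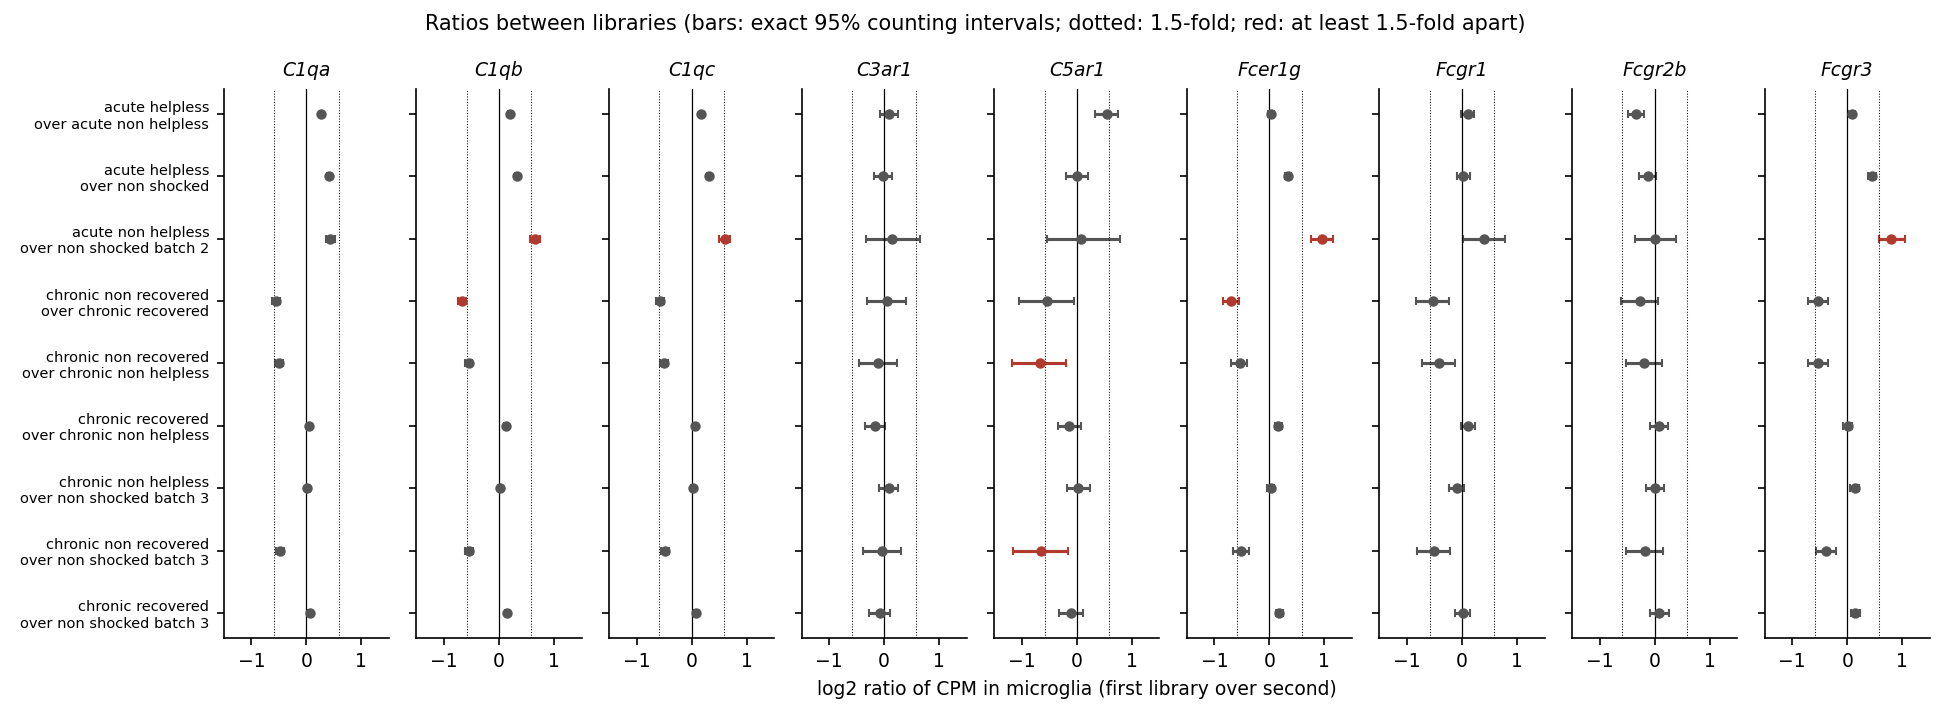
Log2 ratio of microglial CPM for each gene in 9 comparisons of libraries; bars are exact 95% counting intervals, dotted lines mark 1.5-fold, and red points are genes counted as apart. Red points occur for acute non-helpless over non-shocked cells of batch 2 (4 genes, higher) and for the 3 comparisons of the non-recovered library (2, 1 and 1 genes, lower).

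Within libraries, the ribosome-poor microglia differed from the others in a subset of the genes. The summed microglial markers were lower in them too, in all 6 libraries. These had 21931 against 34580 CPM in the acute non-helpless, 23760 against 33230.5 in the non-recovered and 33996 against 37152 in the non-shocked library. Whether the genes described here fell more than the markers was not tested. Fcer1g was lower and apart in 6 of 6 libraries, by 2.26-fold (acute helpless) to 4.74-fold (non-recovered). Its level in ribosome-poor against other microglia was 1126 against 2544 CPM in the acute helpless, 823 against 2480.0 in the acute non-helpless, 979 against 2354 in the recovered, 791 against 2163 in the chronic non-helpless, 888 against 2282 in the non-shocked and 399 against 1892 in the non-recovered library. The ranges of the poor (399 to 1126 CPM) and the other cells (1892 to 2544 CPM) did not overlap. C1qb was lower and apart in 5 of 6 libraries, by 1.61-fold to 2.04-fold, and by 1.48-fold in the other, the non-shocked library. Over all 6 libraries C1qc was 1.25-fold to 1.73-fold and Fcgr3 1.37-fold to 2.09-fold lower, each apart in 3, and C1qa was 1.09-fold to 1.69-fold lower, apart in 1.

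For the other receptors most intervals held 1, some of them wide on few UMIs. C5ar1 in the acute non-helpless library was 2.04-fold lower (0.93 to 5.61) on 6 against 297 UMIs. Such an interval also holds the folds found for C1qb and Fcgr3. The Fcgr1 interval held 1 in all 6 libraries, and those of C3ar1 and Fcgr2b in 5 each. C5ar1 was apart in the non-recovered library only, 3.22-fold lower (1.25 to 10.6) on 5 against 34 UMIs. The number of genes lower and apart was 1 of 9 in the non-shocked library, beside 15% of genes tested. It was 5 in the acute non-helpless, beside 6.86%, and 2 in the acute helpless, beside 13.3%. In the recovered, chronic non-helpless and non-recovered libraries it was 2, 4 and 5, beside 5.26%, 10.8% and 6.6%. The median log2 ratio of the 9 genes ran from -0.79 to -0.13 over the libraries, that of all genes from 0.24 to 0.57. Ribosome-poor cells were shallower, with a median of 1483.5 to 2097 UMIs against 3843 to 4725. Among cells of 1000 to under 3000 UMIs, Fcer1g was still 2.42-fold to 4.26-fold lower in the 5 libraries with at least 20 cells on each side.

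**Figure D3:**
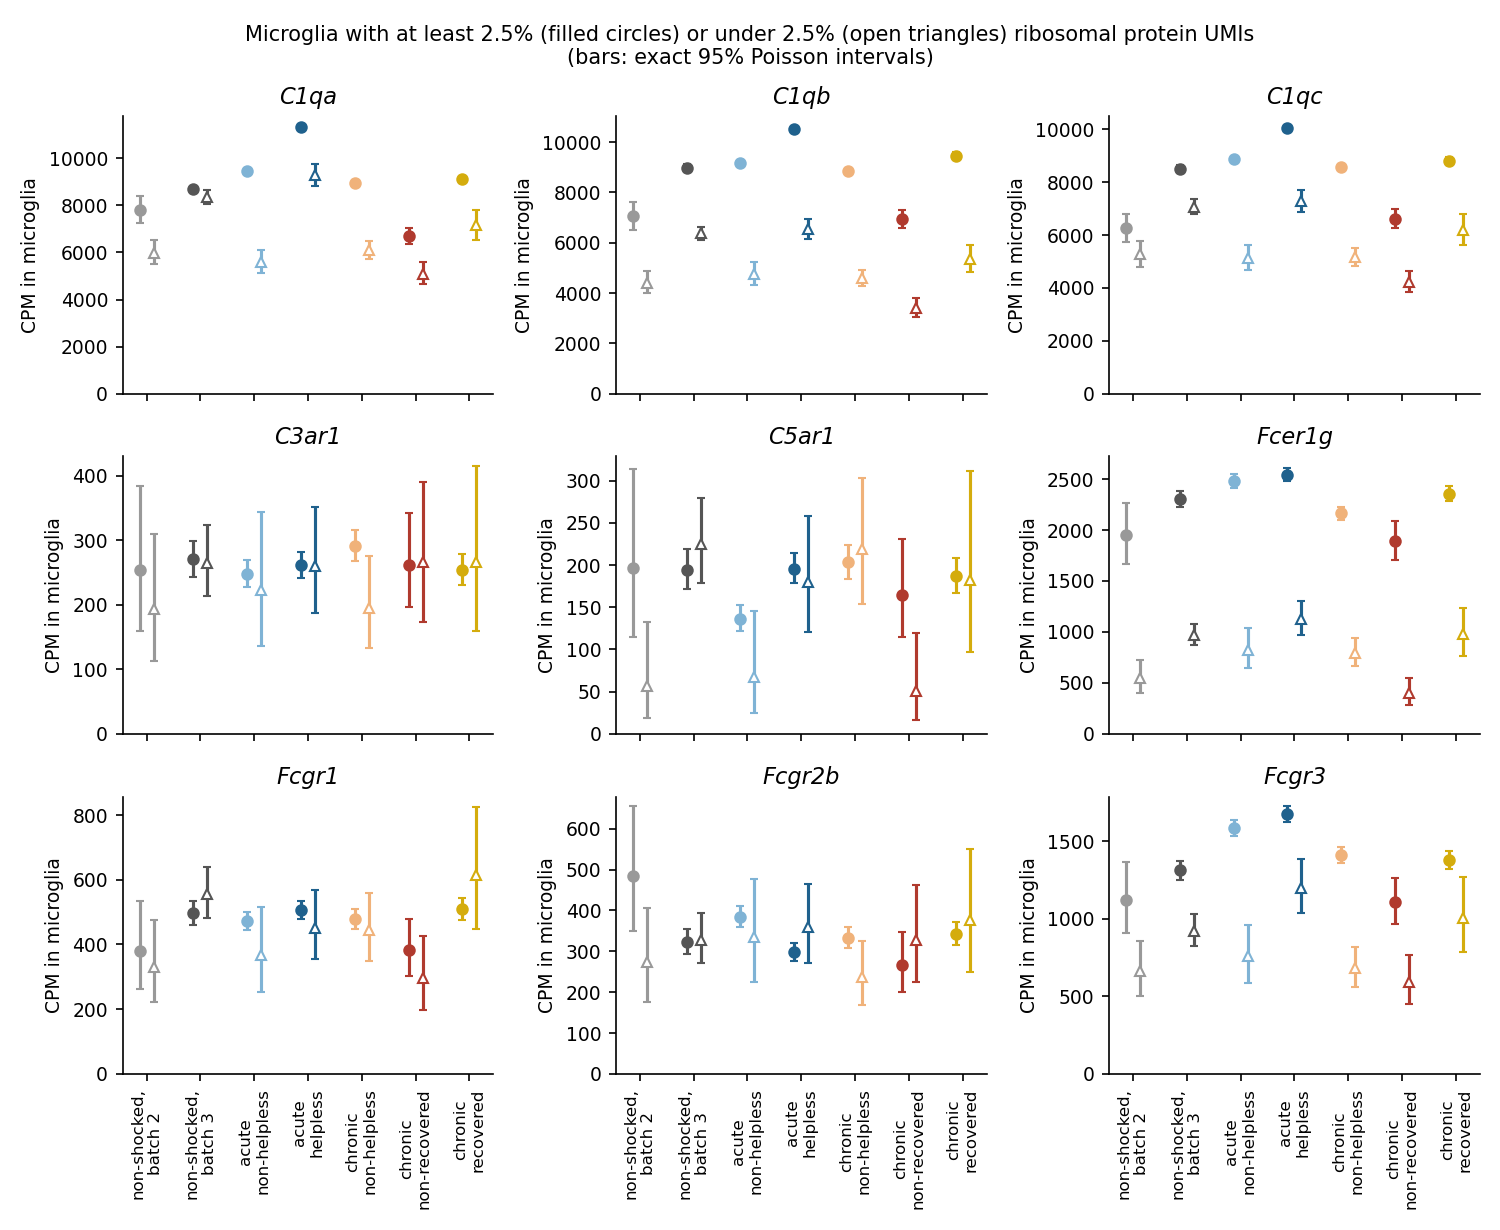
CPM of each gene in microglia with at least 2.5% (filled circles) or under 2.5% (open triangles) ribosomal protein UMIs, by library and with non-shocked cells split by batch; bars are exact 95% Poisson intervals. Fcer1g triangles lie below all circles (399 to 1126 against 1892 to 2544 CPM over the 6 libraries), whereas Fcgr1 and Fcgr2b symbols overlap.

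The 3 C1q genes were present in nearly equal amounts, and their balance differed between these kinds of cells. Of all C1q UMIs in microglia, 34.6% were C1qa, 33.3% C1qb and 32.1% C1qc. By library, the C1qa share ran from 33.4% (recovered, 33 to 33.9) to 35.7% (acute helpless, 35.4 to 36). In ribosome-poor microglia the C1qa share was 36.1% to 40.2% over the 6 libraries, against 33% to 35.5% in the others. The C1qb share was 26.7% to 30.8% against 33% to 34.5%. The C1qa and C1qb ranges of the 6 libraries, taken as point values, did not overlap between the kinds of cells. Batch 2 of the non-shocked library taken alone was an exception for C1qa, with 37% (34.7 to 39.2) in cells that were not ribosome-poor and 38.3% (35.7 to 40.9) in those that were. In the acute non-helpless library the intervals of poor and other cells overlapped for C1qa (33.6 to 38.7 and 34.0 to 34.8) and for C1qb (28.4 to 33.3 and 33.0 to 33.7). C1qc took 31.5% to 33.2% of C1q UMIs in poor cells and 31.5% to 32.7% in the others.

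**Figure D4:**
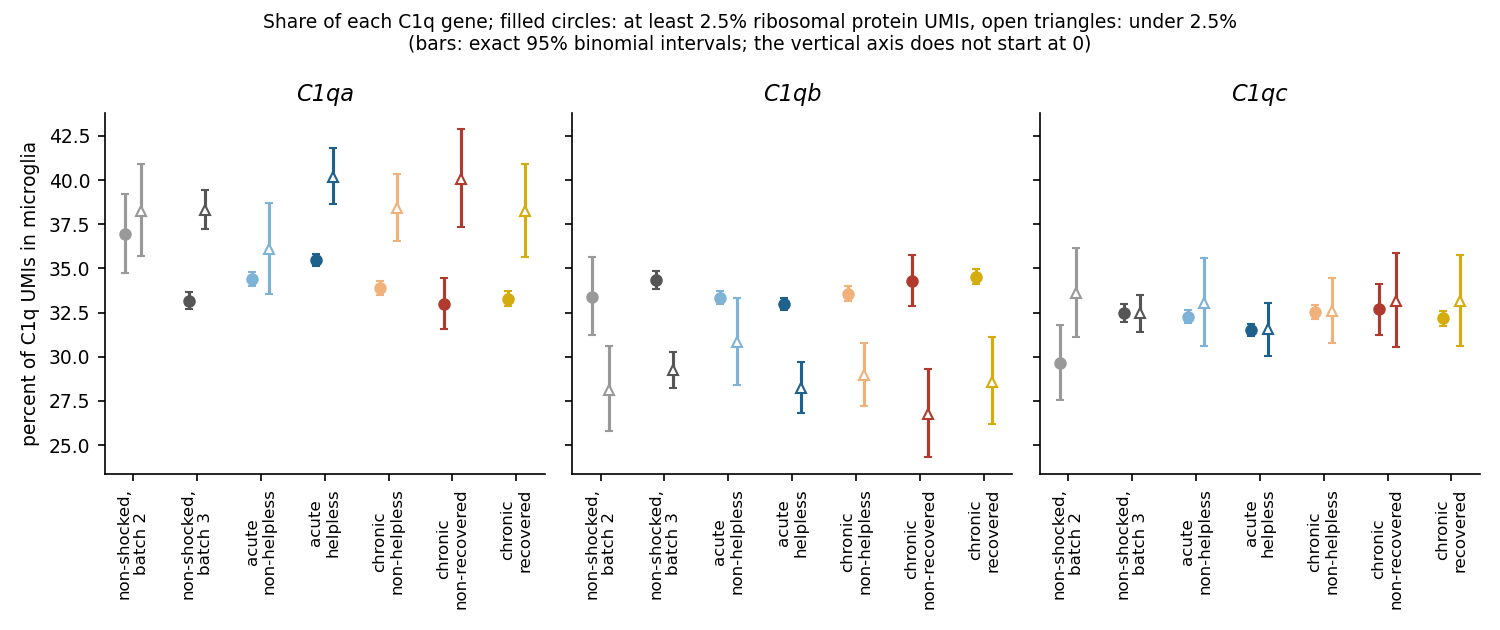
Percent of C1q UMIs that belong to each gene in microglia, by library and with non-shocked cells split by batch; circles are cells with at least 2.5% ribosomal protein UMIs, triangles cells below that, and bars exact 95% binomial intervals. In the 6 libraries, C1qa triangles (36.1% to 40.2%) lie above and C1qb triangles (26.7% to 30.8%) below the circles; the C1qa circle of batch 2 (37%) lies within the range of the triangles.

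Other cell types carried C1q mostly in barcodes that also held microglial transcripts. The 161 barcodes deposited as T cells had a C1q level of 18224 CPM (18047 to 18403). Of these, 116 held at least 0.5% of their UMIs in the 7 microglial markers and had 20560.1 CPM, while the other 45 had 273 CPM (213 to 345). The 39 NK cell barcodes gave 10822 CPM, made up of 15089 CPM in 20 mixed barcodes and 101 CPM (46.4 to 193) in the other 19. In the 17 B cells C1q was 56.7 CPM (18.4 to 132) and C1qa had 0 UMIs, which allows up to 34 CPM. Whether mixed barcodes were cells stuck together or shared droplets was not tested.

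Fcer1g and Fcgr2b were found outside microglia without such mixing. In the 19 unmixed NK cells, whose receptor CD16 signals through the gamma chain, Fcer1g stood at 2976 CPM (2628 to 3357) and was found in 17 of 19 cells, beside 2232 CPM in microglia. In the same cells Fcgr3, which encodes mouse CD16, had 180.4 CPM (103 to 293), beside 1429 CPM in microglia, and C3ar1, C5ar1 and Fcgr1 had 0 UMIs, which allows up to 33.8 CPM each. In unmixed T cells Fcer1g had 691 CPM and was found in 18 of 45 cells. These barcodes were screened for microglial markers only, and held 875 CPM of NK cell and 953 CPM of monocyte markers. Whether the T cells themselves carried Fcer1g was not tested. In B cells, which carry Fcgr2b as their Fc receptor, Fcgr2b had 136 CPM (70.3 to 238) in 7 of 17 cells. Fcer1g in B cells had 22.7 CPM.

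In 15 unmixed monocyte barcodes Fcer1g had 2319.7 CPM (2051 to 2614) and C1q 2242 CPM (1979 to 2532). Fcer1g was found in those of all 6 libraries, at 1323 (recovered) to 3622 CPM (non-shocked), whereas C1q was uneven. The C1q UMIs came from few barcodes: of 261, 153 were in the 3 recovered ones, 150 of them in 1 barcode, 62 in the 2 acute non-helpless and 41 in the 2 non-shocked ones. The 6 chronic non-helpless and 1 non-recovered barcodes held all 11356 neutrophil marker UMIs, with 4 C1q UMIs and 191 of the 270 Fcer1g UMIs. They also held most monocyte marker UMIs, 563 and 37 of 648, and 76 of the 87 border macrophage marker UMIs. The 16 unmixed macrophage barcodes were likewise of different kinds. The 3 non-shocked and 2 acute non-helpless ones held no B cell marker UMI, 37 of the 38 border macrophage marker UMIs and 227 of the 238 C1q UMIs, at 15955 and 23022 CPM. The 7 acute helpless ones had 10304 CPM of B cell markers, 0 border macrophage marker UMIs and 6 C1q UMIs (242 CPM).

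**Figure D5:**
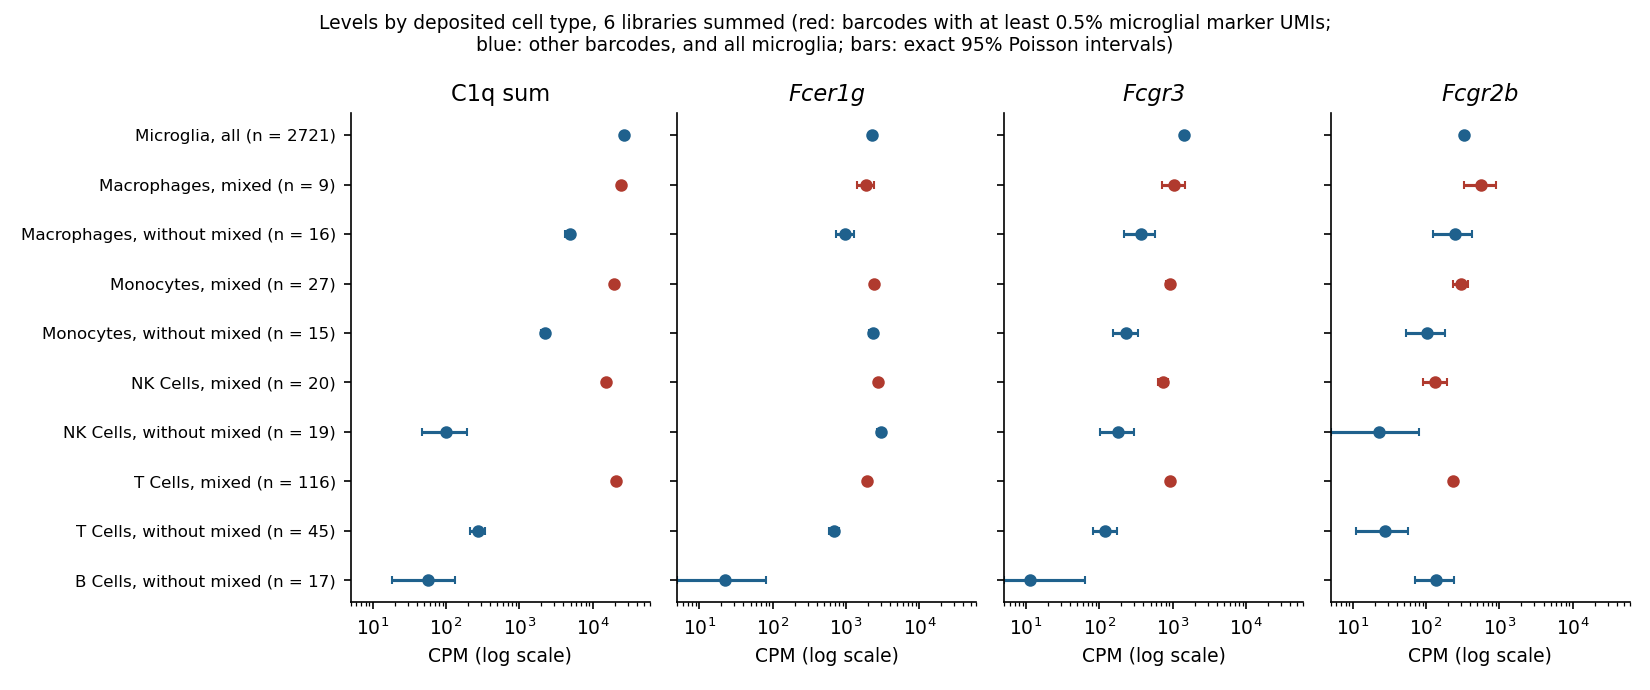
CPM on a log scale of summed C1q, Fcer1g, Fcgr3 and Fcgr2b by deposited cell type over the 6 libraries summed; red points are barcodes with at least 0.5% microglial marker UMIs, blue points all other barcodes and all microglia, and bars exact 95% Poisson intervals. C1q is at 273 CPM or below in unmixed T, NK and B cells, while Fcer1g in unmixed NK cells reaches 2976 CPM.

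The authors' 6 deposited clusters were made from all genes, so their levels are a description. Microglia of cluster 6 (235 cells) and cluster 3 (395 cells) had the lowest ribosomal protein shares, 3.51% and 2.95% of UMIs, against 6.04% to 8.90% elsewhere. Their microglial markers were lowest too, 24950 and 29792 CPM against 31695 to 38893, and their median cells had 1467 and 1884 UMIs. Only cluster 4 was shallower. The same 2 clusters had the lowest Fcer1g levels, 1022 and 1347 CPM, against 2163 to 2560.2 CPM in clusters 1, 2, 4 and 5. At 1000 UMIs per cell, 41.6% and 48.6% of the microglia of clusters 6 and 3 held an Fcer1g UMI, against 88.2% to 89.5% in the other 4 clusters. Of these 4, cluster 4 had only 39 microglia with a median of 977 UMIs, so thinning left out most of them. Summed C1q was 16387 CPM in cluster 6, 20844 in cluster 3 and 24985 to 29134 in the others. Fcgr1 was 434 and 473 CPM in clusters 6 and 3, inside the 375 to 501 CPM of the others. Within cluster 1, C1q was 21954 CPM in 41 non-recovered cells and 25892 to 31353 CPM in the other 4 libraries that had cells there. The microglial markers of these non-recovered cells, 36310 CPM, lay inside the 35564.5 to 42665 CPM of the others. Within cluster 6 C1q was 10997 CPM in 58 non-recovered cells, 15721 in 46 recovered cells and 19748 in 131 non-shocked cells. There the markers had the same order, with 19996, 24135 and 28141 CPM, and ribosomal protein shares were 1.44%, 5.51% and 3.67%. The part of these traits in the C1q levels was not tested.

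The further genes of the pathway were taken from 5 lists with 63 genes. Microglia held the receptors and their signalling chain but hardly any transcripts of complement components beyond C1q: at most 1 of the 20 further components reached 20 CPM in any comparison. That gene was C3, the central component, with 7 UMIs in the non-recovered library, against 2, 5 and 1 in the libraries it was compared with, which counted as higher; all 7 were in the 1 barcode left out by the marker check. Of 10 complement regulators 2 or 3 were measured, of 7 other complement receptors 3, of 12 other Fc receptors 3 and of 14 Fc signalling genes 13.

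Among the signalling genes, Tyrobp, which encodes the adaptor DAP12 and is built like the gamma chain, went with Fcer1g. Its level was 2895 CPM in acute helpless, 2719.5 in acute non-helpless, 2471 in recovered and 2316 in chronic non-helpless microglia, 2153 and 1227 in batches 3 and 2 of the non-shocked cells, and 1507 in non-recovered microglia. Tyrobp was 1.64-fold lower (1.49 to 1.81) in non-recovered than in recovered microglia and stood 2.22-fold above batch 2 of the non-shocked cells (1.93 to 2.55) in acute non-helpless microglia. In non-recovered over recovered microglia 3 of 13 signalling genes were apart and higher: Inpp5d, the lipid phosphatase SHIP1 that Fcgr2b recruits, by 1.64-fold (1.44 to 1.85), Plcg2, a phospholipase, by 1.57-fold (1.22 to 1.99), and Pik3cd, a PI3-kinase catalytic subunit, by 1.83-fold (1.35 to 2.46). Genes higher and apart made up 16.8% of all genes in that comparison. Lat2, an adaptor, was lower there by 1.53-fold (1.02 to 2.36).

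In acute helpless over acute non-helpless microglia 1 of 13 was apart, beside the 17.4% of all genes: Pik3cd, 1.54-fold lower (1.26 to 1.88). In acute helpless over non-shocked microglia 4 of 13 were lower and none higher, beside 22.5% of all genes that were lower: Syk, the kinase that binds the gamma chain, by 1.55-fold, Plcg2 by 1.54-fold, Pik3cd by 1.70-fold and Pik3ap1, a PI3-kinase adaptor, by 1.85-fold. C5ar2, the second C5a receptor, was lower there as well, with 32.5 against 74.7 CPM, a fold of 1.75 to 3.04 by its interval. In acute non-helpless over non-shocked cells of batch 2, where 21.8% of all genes were lower, Itgam, the alpha chain of complement receptor CR3, was 2.75-fold lower (2.17 to 3.46), C5ar2 2.10-fold, Cbl, a ubiquitin ligase, 2.42-fold, Syk 1.86-fold and Pik3ap1 1.74-fold lower. Cd46, a regulator, was lower on 3 against 6 UMIs. Itgam was also 3.06-fold higher (2.39 to 3.88) in batch 2 than in batch 3 of the non-shocked cells, so that batch 2 was high in it within 1 group. In that contrast, where 13.6% of all genes were higher, Cbl was 2.09-fold higher, Cd46 was higher on 6 against 4 UMIs, and Tyrobp was 1.76-fold lower.

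Non-recovered over chronic non-helpless microglia had Plcg2 1.56-fold and Pik3cd 1.61-fold higher, beside 16.1% of all genes, and Tyrobp 1.54-fold and Lat2 1.53-fold lower. Over non-shocked microglia of batch 3 they had Inpp5d 1.64-fold, Plcg2 1.56-fold, Pik3cd 1.82-fold and Cbl 1.54-fold higher, beside 8.6% of all genes, and Lat2 1.72-fold lower. None of the listed genes was apart in the other 3 chronic comparisons.

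The genes most like the members were found by Pearson's r, given without a test. Over 7 microglial profiles (the 5 shocked libraries and the batches of non-shocked cells) and 2216 candidate genes, summed C1q went most closely with Npc2, a lysosomal cholesterol carrier (r = 0.995), Clic1 (0.987), Eif3f (0.984), Necap2 (0.983) and Cst3, the secreted protease inhibitor cystatin C (0.982). Fcer1g went with Oaz1 (0.996), Ostc (0.995), Tyrobp (0.995), Atp5e (0.993) and Sfr1 (0.993). These profiles share their libraries, depth and ribosome-poor share. From cell to cell within libraries, thinned to 1000 UMIs and averaged over the 6 libraries, the genes closest to C1q included Cst3 (0.734), Ctss (0.498), Itm2b (0.495) and the purinergic receptor gene P2ry12 (0.452) among 343 candidates. For Fcer1g the same measure gave Cst3 (0.474), Tmsb4x (0.373), Itm2b (0.328), Tyrobp (0.322) and P2ry12 (0.299). Cst3 led both lists within cells.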

How the data were processed

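The deposited raw UMI count tables of 6 libraries were used, with unit counts per gene and cell; per the file headers, the authors' cell metadata gave cell type, cluster, batch and UMIs per cell. The submitters' processing notes name Cell Ranger 2.2.0, Seurat 2.3.4 and mm10. The filtering, clustering and typing of cells and the meaning of a batch are not stated there. Normalized tables were not used. UMI sums matched the deposited totals in all 3005 cells.

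Within each library, the UMIs of a cell type were added up and scaled to CPM by their total. Levels were given exact Poisson, shares Clopper-Pearson and ratios conditional exact 95% intervals, which cover counting error only. A zero count was read as a limit of 3 counts. In log2 ratios and list medians, a count under 3 in the lower library was set to 3. With 1 library per group no test was made. Genes were compared where they had a UMI under both gene annotations found in the tables (13451 genes; 3932 had UMIs under only 1 of them), a limit chosen after seeing the data, and at least 20 CPM in the higher library. Fold changes were counted as apart at 1.5-fold, over all such genes. The 9 members and the 5 lists were chosen with earlier results of these data known. Listed genes are named where apart, except that a few results are not reported here, and the most alike genes are the top 5 by r among genes with at least 50 CPM in all profiles, or a UMI in at least 20% of thinned microglia of every library. Single-cell doublets were kept; Scrublet (scanpy 1.11.5) called 56 of 3005 cells, 50 of them microglia. Ratios and their intervals were tested on simulated Poisson counts. These follow the model of the intervals and hold no spread between cells or mice, so the test cannot show how such spread acts. Alternatives were median-of-ratios scaling, equal cell weights, thinning to 1000 UMIs, other totals, other cell filters, the marker check (at least 0.5% microglial marker UMIs and under 20 neutrophil UMIs), ribosomal protein UMIs of at least 2.5%, other non-shocked cells and no CPM minimum. Limits of 4000 to under 8000 UMIs, and for the ribosomal split of 1000 to under 3000 UMIs and totals without ribosomal protein genes, were added after seeing the data. Python 3.11.15, numpy 2.4.6, scipy 1.17.1, pandas 2.3.3 and matplotlib 3.10.9 were used. Promoter sequences are from RefSeq, GRCm38.p6.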

Additional observations from a re-analysis of the deposited data

Results flagged for a closer look

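For 5 of the 9 genes the acute and the chronic contrast of helpless with non-helpless mice pointed in opposite directions, each with an interval that left out 1, beside 3.8% of 6501 genes tested in both contrasts. This rule has no fold limit, so genes with many UMIs meet it more easily. C1qa, C1qb, C1qc and Fcgr3 rank 6, 7, 8 and 57 of 16000 genes by UMIs, and C5ar1 839. The 3.8% was not matched for UMI count and is therefore no like-for-like share. The log2 ratio of acute helpless over acute non-helpless minus that of chronic non-recovered over chronic non-helpless microglia was 0.76 for C1qa (0.27 and -0.50), 0.74 for C1qb (0.19 and -0.55), 0.69 for C1qc (0.18 and -0.51), 1.22 for C5ar1 (0.54 and -0.67) and 0.61 for Fcgr3 (0.08 and -0.53). With 1 library per group the difference was not tested. The acute libraries came from different batches and the non-recovered library had 53.5% ribosome-poor microglia, whose part in the difference was not tested.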

How the results depend on the processing

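No paired analysis was possible because each group has 1 library, and no replicate could be left out. Of 1017 ratios of single members under the alternatives, 852 lay inside the reported interval and 165 outside; 50 changed sign, 2 of them with a reported interval that left out 1. All 120 C1q ratios of the non-recovered library, reported and alternative, were below 0. The number of the 9 genes apart moved as follows. The share of all genes apart was not computed under these alternatives, except for acute helpless microglia against each batch of non-shocked cells. Whether all genes moved as the 9 did was thus not tested. For acute helpless over acute non-helpless it was 1 in place of 0 with median-of-ratios scaling and 1 with cells of 4000 to under 8000 UMIs. For acute helpless over non-shocked it was 1 in place of 0 with median-of-ratios scaling, 1 with equal cell weights, 1 thinned, and 6 against batch 2. For acute non-helpless over batch 2 it was 6 in place of 4 with median-of-ratios scaling, 0 with ribosomal protein UMIs of at least 2.5% and 0 with all non-shocked cells; at 4000 to under 8000 UMIs batch 2 had too few cells. For non-recovered over recovered it was 7 in place of 2 with median-of-ratios scaling, 4 with equal cell weights, 4 thinned, 0 at the ribosomal limit and 0 at 4000 to under 8000 UMIs. Over chronic non-helpless it was 6 in place of 1, 3, 4, 0 and 0 in the same order, and 0 with the marker check. Over non-shocked cells of batch 3 it was 4 in place of 1, 2, 3, 0 and 0, and 0 with the marker check. Median-of-ratios scaling sets the median of all genes to about 0; that median had been 0.16 in log2 for non-recovered over recovered microglia, -0.16 for acute helpless over non-shocked and -0.27 for acute non-helpless over batch 2. The cause of the other shifts was not tested. The 3 remaining chronic comparisons stayed at 0 under every alternative run. Within libraries, the number lower in ribosome-poor cells was 3 in place of 1 in the non-shocked library under both alternatives and 4 in place of 2 in the acute helpless library at 1000 to under 3000 UMIs.

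Without mixed barcodes, C1q was 273 CPM in place of 18224 in T cells and 101 in place of 10822 in NK cells, and Fcer1g in T cells was 691 in place of 1799 CPM. Thinning to 1000 UMIs took the share of microglia with an Fcer1g UMI from 89.6% to 80.3%, and in clusters 1, 2, 3 and 5 from 99.3%, 99.4%, 66.1% and 96.3% to 89%, 89.3%, 48.6% and 88.2%. Depth limits C5ar1 most, with 22 UMIs in batch 2 of the non-shocked cells and 39 in the non-recovered library.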
